A study of Mus musculus with 20 samples.

Results

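The genes described here encode germ line RNA-binding proteins and proteins of translation control in the mouse testis. They are Dazl, Boll, Ybx1, Ybx2, Pabpc1, Papolb, Cpeb1, Nanos2, Nanos3 and Elavl2. Members were all probe sets (sets of short oligonucleotides read out as 1 value for 1 transcript) whose gene symbol in the platform annotation is one of these 10 names. The rule found 20 of the 45101 probe sets on the array. They belong to 8 of the 10 genes, out of 18193 genes with a probe set of their own: 5 for Elavl2, 4 for Boll, 3 for Ybx1, 2 each for Dazl, Pabpc1 and Papolb, and 1 each for Ybx2 and Cpeb1. Nanos2 and Nanos3 have no probe set under their symbols in the annotation used and were not analysed here.

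The series follows the whole testis of the mouse from birth (day 0) to day 35. Its 20 single-colour arrays hold total RNA of 10 days, 2 arrays each. These are 5 days up to day 10 (0, 3, 6, 8 and 10), followed by days 14, 18 and 20 and then by days 30 and 35. The labels name no transgene, mutation or treatment, and strain and the number of animals behind each RNA are not given in the sources used here. Nothing in the labels says that both arrays of a day came from separate animals, so p-values measure the spread between these samples, which may be technical. The labels of 1 array disagree: its title says day 18 replicate 2 and its source says day 0. It is used here as day 18.

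Growing male germ cells make many mRNAs long before the proteins are needed, because transcription stops as the spermatid nucleus condenses. RNA-binding proteins store, mask, polyadenylate or activate those mRNAs in turn. In the mouse the first wave of spermatogenesis is roughly synchronous, so spermatogonia, spermatocytes, round spermatids and elongating spermatids join the testis one after another in the weeks after birth.

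Values are intensities on a linear scale, and each level refers to 1 probe set only. Levels are not compared between probe sets. A gene is described by its leading probe set, the one with the highest mean log2 intensity. Differences are log2 differences of intensity plus a constant of 7.84, later day minus earlier day, with a standard error (SE) from a limma fit to all 20 arrays. A difference was called where the Benjamini-Hochberg adjusted p over 37292 tested probe sets was under 0.05 and its size was at least 1. Because whole testis was measured, fewer cells of a type and less RNA per cell cannot be told apart.

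The 27 bacterial control probe sets had a median per array of 5.4 to 11 on days 18 to 35, against 1.21 to 4.0 on days 0 to 14, while the trimmed mean of all probe sets was 125 on all 20 arrays. Of the comparisons between days tested below, only day 20 against day 14 spans this step in low values. Results over all days (the time course test, ratios of highest to lowest day and correlations of courses) use arrays on both sides of it. Over the tested probe sets, log2 values of the 2 arrays of a day correlated with Pearson's r between 0.934 on day 30 and 0.981 on day 6. Of 10 lists of cell type markers, the summed level was highest on day 0 for Leydig cell markers (8600), on day 6 for undifferentiated spermatogonia (1950), on day 8 for peritubular myoid cells (6770) and on day 10 for Sertoli cells (12800) and differentiating spermatogonia (3010). It was highest on day 14 for macrophages (1770), on day 20 for meiotic prophase (12800), on day 30 for pachytene spermatocytes (26500) and elongating spermatids (49300), and on day 35 for round spermatids (17600). The sums add different probe sets, and 1 gene can carry them: on day 8 Clu gave 7252 of the mean Sertoli sum of 11590, while Amh had 160.3 on day 8, against 733.6 on day 0. The sums differed between days as the members did, and the part of cell composition in the members' courses was not tested.

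Promoter sequences of 9 of the 10 genes (all but Pabpc1) were matched by symbol in RefSeq, build GRCm38.p6, as 16 windows of 300 bases from 250 before to 50 after a start site. Any member window on 1 chromosome where none of the 10 genes lies was left out. That chromosome was kept in the background windows given below. Those of Ybx2, Boll and Papolb are shown because all 3 transcripts were called higher on day 14 against day 8, and that of Dazl because it belongs to the same family as Boll and was called higher on day 8 against day 0. Capitals mark CCAAT or its reverse complement ATTGG, the box after which the Y-box proteins were named, and TGACG or CGTCA, the core of the cAMP response element bound by CREB family factors. Each sequence reads 5′ to 3′ along the gene. The windows are chr11:69935649-69935948 and chr11:69936078-69936377 (plus strand) for Ybx2, chr1:55363704-55364003 and chr1:55362679-55362978 (minus strand) for Boll, chr5:142530027-142530326 (minus strand) for Papolb, and chr17:50293571-50293870 (minus strand) for Dazl.
Ybx2, start site 1: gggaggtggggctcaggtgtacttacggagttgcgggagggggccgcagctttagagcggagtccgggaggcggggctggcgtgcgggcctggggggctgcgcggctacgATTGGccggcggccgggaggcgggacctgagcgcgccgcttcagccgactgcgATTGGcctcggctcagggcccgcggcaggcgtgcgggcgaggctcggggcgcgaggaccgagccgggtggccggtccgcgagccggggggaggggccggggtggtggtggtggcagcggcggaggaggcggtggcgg
Ybx2, start site 2: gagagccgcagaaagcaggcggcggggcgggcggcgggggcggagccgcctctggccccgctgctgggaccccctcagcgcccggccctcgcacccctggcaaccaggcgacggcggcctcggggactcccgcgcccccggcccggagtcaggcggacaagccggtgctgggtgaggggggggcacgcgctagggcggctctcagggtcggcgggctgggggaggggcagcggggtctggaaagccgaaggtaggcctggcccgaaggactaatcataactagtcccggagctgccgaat
Boll, start site 1: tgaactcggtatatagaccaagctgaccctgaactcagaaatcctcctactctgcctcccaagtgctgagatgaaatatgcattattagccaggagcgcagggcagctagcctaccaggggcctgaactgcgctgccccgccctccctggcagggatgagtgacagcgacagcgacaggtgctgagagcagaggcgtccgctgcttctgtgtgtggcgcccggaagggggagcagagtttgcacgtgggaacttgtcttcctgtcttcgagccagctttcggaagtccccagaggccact
Boll, start site 2: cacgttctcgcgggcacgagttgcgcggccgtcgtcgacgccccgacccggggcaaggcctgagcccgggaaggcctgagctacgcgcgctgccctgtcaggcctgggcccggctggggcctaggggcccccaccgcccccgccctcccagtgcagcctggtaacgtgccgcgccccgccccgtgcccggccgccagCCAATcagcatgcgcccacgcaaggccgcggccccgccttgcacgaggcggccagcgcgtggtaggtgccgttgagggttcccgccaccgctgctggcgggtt
Papolb: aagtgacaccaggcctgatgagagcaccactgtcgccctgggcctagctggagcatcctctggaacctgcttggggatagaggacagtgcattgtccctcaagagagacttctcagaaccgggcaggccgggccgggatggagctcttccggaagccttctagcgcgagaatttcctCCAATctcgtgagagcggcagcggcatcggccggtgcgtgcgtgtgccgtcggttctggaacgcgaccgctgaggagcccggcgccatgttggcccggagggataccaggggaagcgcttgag
Dazl: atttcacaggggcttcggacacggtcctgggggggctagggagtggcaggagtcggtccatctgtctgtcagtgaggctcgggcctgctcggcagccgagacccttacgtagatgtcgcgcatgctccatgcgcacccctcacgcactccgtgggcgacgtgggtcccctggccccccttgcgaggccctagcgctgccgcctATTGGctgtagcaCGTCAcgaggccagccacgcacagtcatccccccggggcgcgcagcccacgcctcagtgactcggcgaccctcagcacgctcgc

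On either strand, CCAAT was found in 2 copies at Ybx2 start site 1, in 1 copy each at Boll start site 2, Papolb and Dazl, and in neither Ybx2 start site 2 nor Boll start site 1. Dazl alone of these 4 genes held the TGACG core, in 1 copy. Over the 16 windows of the 9 genes, 11 windows (7 genes) held CCAAT and 5 windows (3 genes) held TGACG. The same searches found CCAAT in 37.4% and TGACG in 20.8% of 32851 mouse promoter windows of the same length. By gene, CCAAT was found at 11096 and TGACG at 6228 of 27025 genes. Several windows of Elavl2 overlap each other, so these counts are not of independent sequences. A match describes the letters in the window and is not evidence of binding.

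Over the 10 days, 16 of the 19 tested member probe sets passed the time course test (limma's F test across days with an adjusted p below 0.05, and a log2 distance of 1 or more between the highest and the lowest day), beside 73.1% of all 37292 tested probe sets. By leading probe set, 7 of the 8 genes passed, beside 77.3% of 16428 genes, so the members' share lies near that of the array. Where they differed among themselves was in shape. Ybx2, Ybx1 and Pabpc1 had their highest mean on day 35 and Papolb on day 30. Boll was highest on day 20, Dazl and Cpeb1 on day 14, and Elavl2 on day 10. The ratio of the highest to the lowest day mean ran from 1.62 for Pabpc1 to 368 for Ybx2. The lowest day mean of Ybx2, 11.9 on day 3, is near the low end of the array, so its ratio has no firm size. The same holds for Papolb, at 206 over 9.27 on day 6, and for Boll, at 72.8 over 12.3 on day 3.

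**Figure D1:**
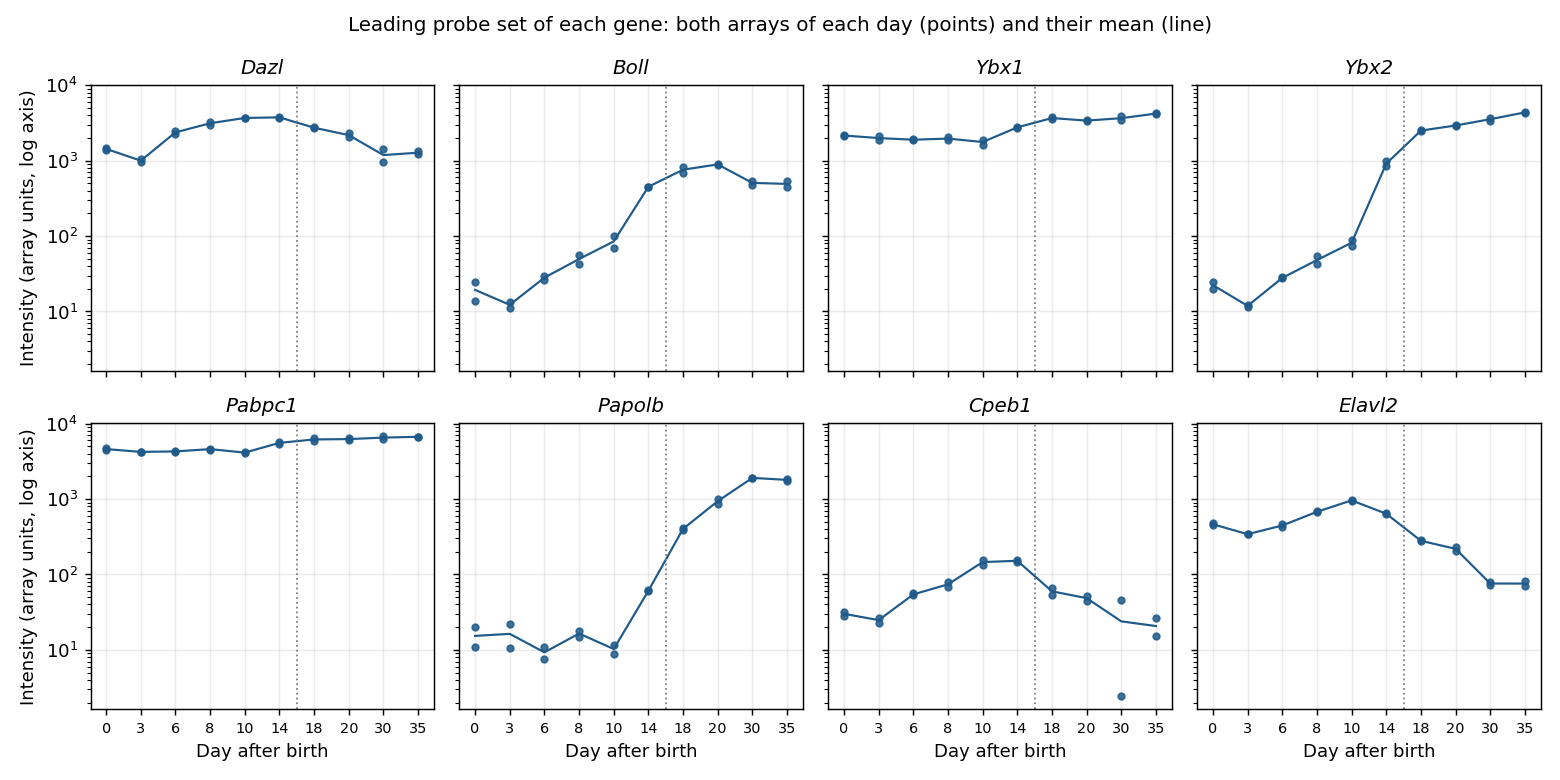
Intensity of the leading probe set of each of the 8 genes (log axis, array units) by day after birth, with both arrays of a day as points and their mean as a line. The dotted line marks the step in low values between days 14 and 18. Ybx2, Papolb and Boll climb from below 30 on day 0, whereas Pabpc1 stays between 4107 and 6796 on all 20 arrays. Levels of different panels are not to be compared, since they come from different probe sets.

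Dazl and Boll belong to the DAZ family, whose members bind U-rich motifs in the 3′ untranslated regions of germ cell mRNAs and promote their translation. Dazl acts from fetal germ cells through early meiosis, and Boll is the family member needed later, during spermatid development in mice. Dazl was abundant at birth, rose by day 8 and had its highest mean on day 14. At its leading probe set Boll was near the low end of the array at birth, was clearly higher on day 14 and had its highest mean on day 20. Its smaller rise on day 8 was not called at every Boll probe set, and neither was its rise on day 14 against day 8.

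Dazl (1449502_at) had 1381 and 1487 on day 0, 1037 and 964.9 on day 3, 2480 and 2272 on day 6, 3281 and 2988 on day 8, and 3655 and 3723 on day 10. It had 3820 and 3690 on day 14, 2710 and 2763 on day 18, 2038 and 2328 on day 20, 1427 and 948.4 on day 30, and 1334 and 1217 on day 35. Both arrays of day 8 lay above both of day 0, and both of day 20 below both of day 14. Neighbours in the order of levels overlapped for days 14 and 10, 6 and 20, 35 and 30, and 30 and 3. The difference was 1.12 ± 0.12 (SE) for day 8 against day 0 (adjusted p = 1.94e-06), which was called. For day 14 against day 8 it was 0.26 ± 0.12 (adjusted p = 0.172). Day 20 against day 14 gave -0.78 ± 0.12 (adjusted p = 2.38e-05) and day 35 against day 20 gave -0.77 ± 0.12 (adjusted p = 4.11e-05), both short of a size of 1. With each array scaled to a common median the first of these was -1.001, and with quantile normalization -1.01, both called. The median gene itself moved by -0.19 under the common median, and relative to it Dazl had -0.81. Under quantile normalization the median gene moved by -0.04.

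A different Dazl probe set (1419542_at) was likewise lowest on day 3 and highest on day 14. It had 3664 and 3633 on day 14, against 871.5 and 899.8 on day 3. The difference for day 8 against day 0 was 1.13 ± 0.06 (adjusted p = 2.78e-10) and was called. For day 14 against day 8 it was 0.56 ± 0.06 (limma, adjusted p = 2.41e-06), short of a size of 1. Its 2 arrays of day 30, at 1465 and 1447, did not show the gap between 1427 and 948.4 seen at the leading probe set.

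Boll (1456842_at) had 13.9 and 24.7 on day 0, 11.3 and 13.3 on day 3, 29.9 and 26.2 on day 6, 42.9 and 56.3 on day 8, and 101 and 68.7 on day 10. It had 448 and 454 on day 14, 697 and 821 on day 18, 882 and 903 on day 20, 535 and 480 on day 30, and 531 and 453 on day 35. The step between days 10 and 14 left no overlap, while day 35 overlapped day 30 and day 14. The difference for day 14 against day 8 was called at 3.01 ± 0.20 (adjusted p = 5.64e-10). That for day 8 against day 0 was called at 1.10 ± 0.20 (adjusted p = 0.000520), from levels close to the added constant. That call was lost without day 0 replicate 1 (0.81) or day 8 replicate 2 (0.93), with a larger constant (0.81) and with values floored at the pooled median (0.28). Day 20 against day 14 gave 0.97 ± 0.20 (adjusted p = 0.000397) and day 35 against day 20 gave -0.85 ± 0.20 (adjusted p = 0.00175), neither of size 1.

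The other 3 Boll probe sets all passed the time course test but differed in shape. Probe set 1432530_s_at was called higher on day 8 against day 0, at 1.86 ± 0.23 (adjusted p = 1.04e-05), and on day 14 against day 8, at 1.11 ± 0.23 (adjusted p = 0.00173). The second of these was lost without day 14 replicate 1 (0.82), whose 282 stood against 188 on the other array of that day. Both were under 1 with the floor, at 0.99 and 0.95. Probe set 1427599_at was called for day 14 against day 8 at 2.38 ± 0.22 (adjusted p = 1.20e-07) and had its highest mean, 242, on that day. Probe set 1432529_at was highest on day 30, with 340 and 458, and was called for day 20 against day 14 at 1.81 ± 0.52 (adjusted p = 0.00788). Without day 14 replicate 2 that value was 1.34 and not called. Day 8 against day 0 was not called at 1427599_at (0.46 ± 0.22, adjusted p = 0.201) or at 1432529_at (0.25 ± 0.52, adjusted p = 0.842). Day 14 against day 8 was not called by limma at 1432529_at either (1.10 ± 0.52, adjusted p = 0.188), and the arrays of these days overlapped there. The suffix _s_at marks probe sets that can match more than 1 transcript.

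**Figure D2:**
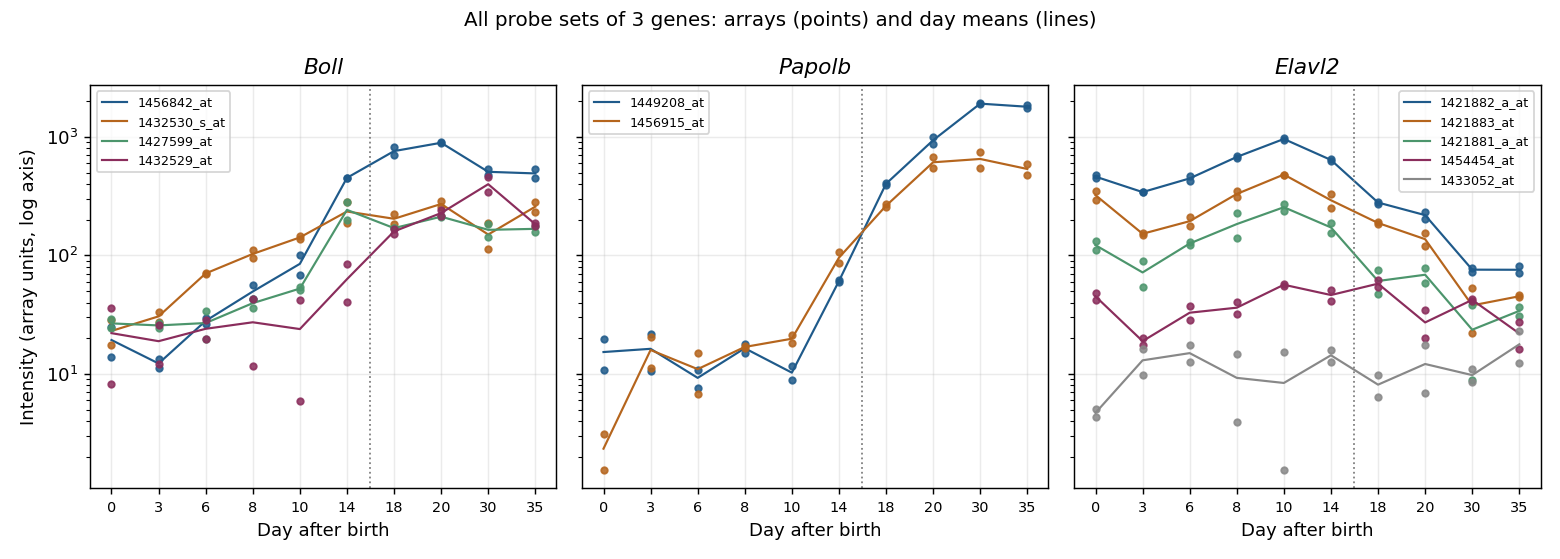
All probe sets of Boll, Papolb and Elavl2, with the intensity of each array as a point and the day mean as a line, on a log axis by day after birth. The 4 Boll probe sets have their highest mean on days 14, 20 and 30, both Papolb probe sets climb by day 20, and 3 of the 5 Elavl2 probe sets have their highest mean on day 10.

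Y-box proteins carry a cold shock domain and package mRNA. Ybx1 is expressed in most tissues, and Ybx2, also called MSY2, is the germ cell form that stores mRNAs in spermatocytes and spermatids.

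Ybx2 (1420762_a_at) had 24.97 and 19.69 on day 0, 12.2 and 11.5 on day 3, 27.5 and 28.3 on day 6, 42.3 and 53.8 on day 8, and 89.7 and 73.6 on day 10. It had 983 and 844 on day 14, 2460 and 2555 on day 18, 2993 and 2863 on day 20, 3730 and 3370 on day 30, and 4315 and 4426 on day 35. No 2 neighbours in the order of its days overlapped. After day 3 each later day was higher than the one before on both arrays. Day 14 against day 8 was called at 4.05 ± 0.13 (adjusted p = 1.33e-14), the largest called difference of any member in that comparison. A further rise, day 20 against day 14, was called at 1.68 ± 0.13 (adjusted p = 1.80e-09). The earlier difference, day 8 against day 0, was 0.89 ± 0.13 (adjusted p = 5.10e-05) and was called only with a smaller constant (1.05), without day 0 replicate 1 (1.01) or without day 8 replicate 1 (1.03). Day 35 against day 20 gave 0.58 ± 0.13 (adjusted p = 0.00120).

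Ybx1 (1418624_at) lay between 1634 and 2209 on all arrays of days 0 to 10. It had 2793 and 2745 on day 14, 3774 and 3579 on day 18, 3450 and 3349 on day 20, 3861 and 3463 on day 30, and 4228 and 4204 on day 35. All arrays from day 14 on were higher than all arrays before it. The ratio of highest to lowest day mean was 2.38, and the gene passed the time course test (adjusted p = 4.40e-12). No single comparison reached a size of 1: day 14 against day 8 gave 0.49 ± 0.08 (adjusted p = 0.000104) and day 35 against day 20 gave 0.31 ± 0.08 (adjusted p = 0.00378). The other 2 Ybx1 probe sets did not pass the time course test (adjusted p = 0.324 for 1438064_at and 0.360 for 1430720_at). Their values ran from 42.1 to 114 and from 4.31 to 44.1.

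Pabpc1 is the main cytoplasmic poly(A)-binding protein, which covers the mRNA tail and links it to translation initiation. Papolb, also called TPAP, is a testis-specific poly(A) polymerase that lengthens tails of selected mRNAs in the cytoplasm of spermatids. At the leading probe sets, Pabpc1 was strong on all arrays with small differences, and Papolb went on climbing after Boll and Ybx2 had taken their largest step.

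Papolb (1449208_at) had 19.9 and 10.8 on day 0, 21.9 and 10.7 on day 3, 10.9 and 7.66 on day 6, 14.9 and 18.1 on day 8, and 11.7 and 8.81 on day 10. It had 59.5 and 62.0 on day 14, 394 and 411 on day 18, 1002 and 873 on day 20, 1895 and 1922 on day 30, and 1749 and 1844 on day 35. Days 0 to 10 lay at the low end, each overlapping its neighbour in the order of levels, and from day 14 on no neighbouring days overlapped. Its largest difference, day 20 against day 14, was called at 3.78 ± 0.22 (adjusted p = 3.91e-11). Day 14 against day 8 was called at 1.499 ± 0.218 (adjusted p = 4.02e-05), with 0.46 and no call once values were floored at the pooled median. Day 35 against day 20 gave 0.94 ± 0.22 (adjusted p = 0.00200) and was called, at 1.04, without day 20 replicate 1. Between day 8 and day 0 the difference was 0.10 ± 0.22 (adjusted p = 0.852) and turned to -0.19 without day 0 replicate 2.

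The other Papolb probe set (1456915_at) also rose on day 14 and day 20, by 2.06 ± 0.25 for day 14 against day 8 (adjusted p = 4.52e-06) and by 2.58 ± 0.25 for day 20 against day 14 (adjusted p = 6.08e-08). The day 14 value was 0.91 and not called with the floor. It was called for day 8 against day 0 at 1.29 ± 0.25 (adjusted p = 0.00126), from 17.2 and 16.6 on day 8, against 1.55 and 3.14 on day 0. Those levels are low beside the constant, and the difference ran from 0 with the floor through 0.69 with a larger constant to 2.27 with a smaller one. It levelled off earlier, with 550 and 672 on day 20, 753 and 550 on day 30, and 479 and 594 on day 35, all 3 days overlapping.

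Pabpc1 (1418883_a_at) had day means of 4601 on day 0, 4131 on day 10, 5565 on day 14, 6244 on day 20 and 6695 on day 35. All arrays of days 14 to 35, from 5423 to 6796, lay above all of days 0 to 10, from 4107 to 4777. Its course passed the F test (adjusted p = 1.99e-10) but its range of 0.70 was under 1, so it was not called over time. Day 14 against day 8 gave 0.28 ± 0.06 (adjusted p = 0.00207) and day 20 against day 14 gave 0.17 ± 0.06 (adjusted p = 0.0257). With arrays scaled to a common median the second turned to -0.05, and relative to the median gene it was 0.14. Day 8 against day 0 was -0.00 ± 0.06 (adjusted p = 0.997), with a positive sign under quantile normalization, under the common median, and without day 0 replicate 2 or day 8 replicate 2. The other Pabpc1 probe set (1453840_at) passed the time course test in another shape, with 45.3 and 26.6 on day 30, its lowest day, against 162 and 154 on day 6, its highest. For day 35 against day 20 it gave -0.84 ± 0.22 (adjusted p = 0.00533), short of a size of 1. The leading probe set gave 0.10 ± 0.06 there (adjusted p = 0.210).

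Cpeb1 binds the cytoplasmic polyadenylation element and recruits the machinery that extends or trims the tail, and germ cells of mice without it stop in meiotic prophase. Elavl2, also called HuB, is a Hu family protein that binds AU-rich and U-rich elements and stabilises or activates its targets. Both had their highest mean by day 14 and were lower on day 18 and on day 20.

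Cpeb1 (1417960_at) had 28.5 and 31.6 on day 0, 22.9 and 26.7 on day 3, 52.9 and 55.9 on day 6, 80.6 and 67.3 on day 8, and 157 and 135 on day 10. It had 158 and 146 on day 14, 53.8 and 65.7 on day 18, 45.0 and 52.1 on day 20, 2.41 and 45.3 on day 30, and 15.3 and 26.1 on day 35. Days 10 and 14 overlapped at the top, and the 2 arrays of day 30 disagreed more than those of any other day. The fall on day 20 against day 14 was called at -1.504 ± 0.453 (adjusted p = 0.0103). The call was lost without day 14 replicate 1 (-1.45, adjusted p = 0.0574), without day 20 replicate 1 (-1.41, adjusted p = 0.0592) and with a smaller constant (-1.62, adjusted p = 0.0540). Day 8 against day 0 gave 1.11 ± 0.45 (adjusted p = 0.118), day 14 against day 8 gave 0.97 ± 0.45 (adjusted p = 0.177) and day 35 against day 20 gave -1.01 ± 0.45 (adjusted p = 0.0978). The first and the last of these had an adjusted p of 0.00217 and 0.00174 without day 30 replicate 1, and of 0.00283 and 0.00230 without day 30 replicate 2. Day 8 against day 0 was also called with array weights and with the compared days alone.

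Elavl2 (1421882_a_at) had 449 and 476 on day 0, 341 and 344 on day 3, 465 and 429 on day 6, 691 and 664 on day 8, and 983 and 939 on day 10. It had 646 and 632 on day 14, 274 and 285 on day 18, 204 and 233 on day 20, 72.8 and 78.9 on day 30, and 70.7 and 80.7 on day 35. Both arrays of day 10 stood above all others, and all arrays of day 18 and later lay below all earlier ones. Its 2 steps down were called: day 20 against day 14 at -1.52 ± 0.10 (adjusted p = 4.65e-10) and day 35 against day 20 at -1.44 ± 0.10 (adjusted p = 1.39e-09). Earlier, day 8 against day 0 gave 0.54 ± 0.10 (adjusted p = 0.00103) and day 14 against day 8 gave -0.08 ± 0.10 (adjusted p = 0.705).

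Elavl2 probe sets 1421883_at and 1421881_a_at also ended low, with their lowest mean on day 30, at 37.9 and 23.6, against 482 and 255 on day 10, their highest day. Probe set 1421883_at was called lower on day 20 against day 14, at -1.05 ± 0.23 (adjusted p = 0.000790), and on day 35 against day 20, at -1.44 ± 0.23 (adjusted p = 4.01e-05). The day 20 value was under 1 in size without day 14 replicate 2 (-0.85), without day 20 replicate 1 (-0.88), with quantile normalization (-0.85), with a larger constant (-0.98) and with the floor (-0.92). Probe set 1421881_a_at was called lower on day 20 against day 14, at -1.24 ± 0.35 (adjusted p = 0.00621). Without day 14 replicate 1 or day 20 replicate 1 its adjusted p was 0.0553 or 0.0629. Day 35 against day 20 was not called by limma at 1421881_a_at (-0.86 ± 0.35, adjusted p = 0.0632). Of the remaining probe sets, 1454454_at was highest on day 18, with 54.0 and 61.6, and 1433052_at did not pass the filter on low values. Probe set 1454454_at was not called for day 20 against day 14 (-0.65 ± 0.29, adjusted p = 0.0720) or day 35 against day 20 (-0.23 ± 0.29, adjusted p = 0.606).

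**Figure D3:**
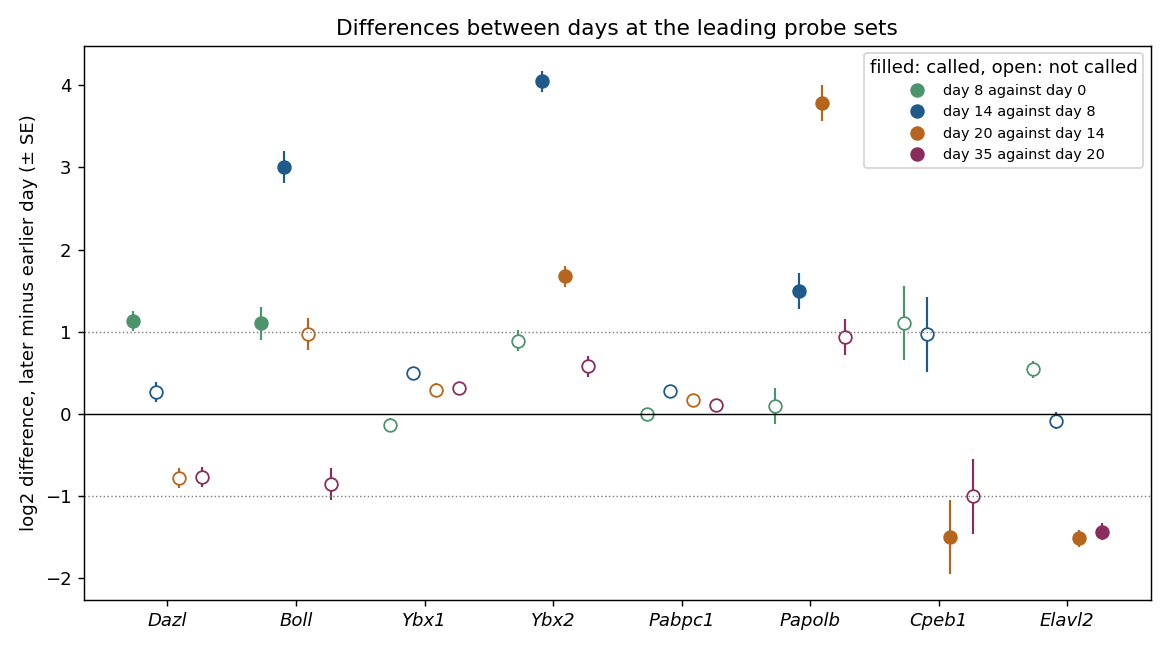
Log2 difference of the leading probe set of each gene in the 4 comparisons, later day minus earlier day, with bars of 1 SE. Filled points were called, and dotted lines mark a size of 1. Ybx2 and Boll have their largest value on day 14 against day 8 and Papolb on day 20 against day 14. Elavl2, Cpeb1 and Dazl lie below zero both on day 20 against day 14 and on day 35 against day 20.

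Set side by side, the 4 comparisons called few of the 8 genes each. On day 8 against day 0, 2 genes were higher (Dazl and Boll) and 0 lower, beside 3.17% and 2.54% of 16428 genes (limma; at an unadjusted p under 0.05, 5 higher and 0 lower). On day 14 against day 8, 3 were higher (Boll, Ybx2 and Papolb) and 0 lower, beside 5.34% and 2.4% (7 higher and 0 lower unadjusted). On day 20 against day 14, 2 were higher (Ybx2 and Papolb) and 2 lower (Cpeb1 and Elavl2), beside 17.9% and 11.2% (5 higher and 3 lower unadjusted). On day 35 against day 20, 0 were higher and 1 lower (Elavl2), beside 8.32% and 7.18% (3 higher and 4 lower unadjusted). Pabpc1 and Ybx1 were called in none of the 4 comparisons, although unadjusted and adjusted p-values of both were under 0.05 for day 14 against day 8. Neighbouring comparisons share the arrays of a day, so they are not independent.

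Across the 10 day means of log2 intensity, which share their arrays and scaling, the members fell into courses that ran alike. Pearson's r was 0.987 between Pabpc1 and Ybx1, 0.976 between Boll and Ybx2, 0.962 between Pabpc1 and Papolb, and 0.951 between Cpeb1 and Dazl. It was -0.882 between Elavl2 and Papolb, 0.808 between Cpeb1 and Elavl2, and 0.170 between the DAZ family genes Dazl and Boll.

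Among about 11534 genes that passed the time course test, the courses most like that of Ybx2 were Hspa2, Acot7 and Clgn (r = 0.996 each over 10 days). Hspa2 and Clgn encode chaperones of spermatocytes. Those most like Papolb were Zfp646 and Tmem217 (0.999 each) and Tcp11 (0.997). Those most like Boll were Nol8 (0.991), Taf7l2 (0.990) and Tesmin (0.989). Dazl was closest to Gclm (0.975), Btbd18 (0.966) and Slc25a31 (0.963), and Cpeb1 to Cdk11b (0.988), Aagab (0.987) and Edem2 (0.986). Elavl2 was closest to Polr2b (0.995), Rab20 (0.992) and Copb2 (0.991), Pabpc1 to A26c3 (0.990), Ropn1l (0.988) and Gtf2a1l (0.987), and Ybx1 to Fbp1, Smpd5 and Pkig (0.984 each). With 10 points and so many candidates high values arise for many genes, and the values are given as a description.

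The 8 genes were also set beside 108 other genes of the same machinery in 8 lists by role, of which 101 were tested. On day 8 against day 0, 10 of the 101 were higher and 0 lower (9.90% and 0%, beside 3.17% and 2.54% of all genes, with 9 lower at an unadjusted p under 0.05), and on day 14 against day 8, 10 were higher and 2 lower (9.90% and 1.98%, beside 5.34% and 2.4%). On day 20 against day 14, 12 were higher and 15 lower (11.9% and 14.9%, beside 17.9% and 11.2%), and on day 35 against day 20, 3 were higher and 14 lower (2.97% and 13.9%, beside 8.32% and 7.18%). The median difference of the 101 genes was 0.16, 0.05, -0.20 and -0.36 in these comparisons, beside -0.01, -0.02, 0.01 and -0.20 for all genes. With arrays scaled to a common median, which moved the median gene by -0.19, day 20 against day 14 had 8 of these genes higher and 22 lower, and 2446 of all genes higher and 2902 lower, beside 2935 and 1838 as deposited. The 66 calls kept their sign in every alternative that tested the gene.

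Poly(A)-binding proteins moved in both directions. Pabpc6 and Pabpc2, testis forms of the cytoplasmic poly(A)-binding protein, rose on day 14 against day 8, by 3.75 ± 0.20 (adjusted p = 3.72e-11) and 2.55 ± 0.29 (adjusted p = 1.82e-06). They rose again on day 20 against day 14, to means of 2194 and 2153 on day 20, against 112 and 93.3 on day 14. Their day 8 means, 0.979 and 9.59, lie near or under the constant, so the first differences depend on it. Paip1, a coactivator that binds the poly(A)-binding protein, rose by 1.46 ± 0.12 on day 14 against day 8, while Pabpc4l fell by 1.44 in the same comparison. Pabpc4 fell by 1.28 on day 20 against day 14, and Paip2, a translational inhibitor that displaces the protein from the tail, fell by 1.15 on day 35 against day 20. Of the poly(A) polymerases and cleavage factors, 0 of 14 were called by limma in the first 3 comparisons (5, 6 and 9 at an unadjusted p under 0.05), and Papolg (-1.03) and Cpsf7 (-1.10) fell on day 35 against day 20.

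Of the CPEB family and its cofactors, Cpeb2 rose by 1.78 ± 0.16 and Tob1, an antiproliferative protein that recruits deadenylases, by 1.01 ± 0.12 on day 14 against day 8. Parn, a poly(A) ribonuclease, fell by 1.18 on day 20 against day 14, and Sympk, a scaffold of the polyadenylation machinery, rose by 1.52 on day 35 against day 20. Among cold shock proteins, Ybx3 reached 4210 on day 20, against 1613 on day 14 (1.38 ± 0.09). Lin28a, a marker of undifferentiated spermatogonia, rose by 2.42 ± 0.21 on day 8 against day 0 and fell by 1.22 on day 20 against day 14 and fell by 1.83 on day 35 against day 20. Carhsp1 fell by 1.24 on day 20 against day 14.

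Of the partners of NANOS and the CCR4-NOT deadenylase, Nanos1 rose by 1.61 ± 0.25 and Dnd1, the germ cell protein that works with NANOS2, by 1.02 ± 0.14 on day 8 against day 0. Cnot4 rose by 1.41 on day 20 against day 14, while the deadenylase Cnot6l fell by 1.08 there and fell by 1.03 on day 35 against day 20. In the ELAV and CELF families, Elavl3 rose by 1.90 ± 0.46 on day 14 against day 8, and Elavl1 fell by 1.05 and Celf2 fell by 1.24 on day 20 against day 14. On day 35 against day 20 Celf6 rose by 1.47, while Celf1 fell by 1.26 and Celf2 fell by 1.21. Of the 4 tested DAZ partners and PUF proteins, 0 were called by limma in each of the 4 comparisons, with 2, 2, 4 and 4 at an unadjusted p under 0.05.

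The list of other germ line regulators is the largest, with 36 of the 101 tested genes. On day 8 against day 0 Rbm44 (1.88), Meioc (1.76), a partner of YTHDC2 in meiotic entry, and Rbmxl2 (1.39) rose most. On day 14 against day 8 Adad1 (2.91) and Meioc (2.72) rose most and Samd4 (-1.34) fell. On day 20 against day 14 Ddx25, an RNA helicase of spermatids, rose by 1.85, while Samd4 fell by 1.79 and Zfp36l1, which promotes decay of AU-rich mRNAs, fell by 1.502. On day 35 against day 20 Msi2 fell by 2.02, Zfp36l1 fell by 1.29 and Zfp36l2 fell by 1.26.

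**Figure D4:**
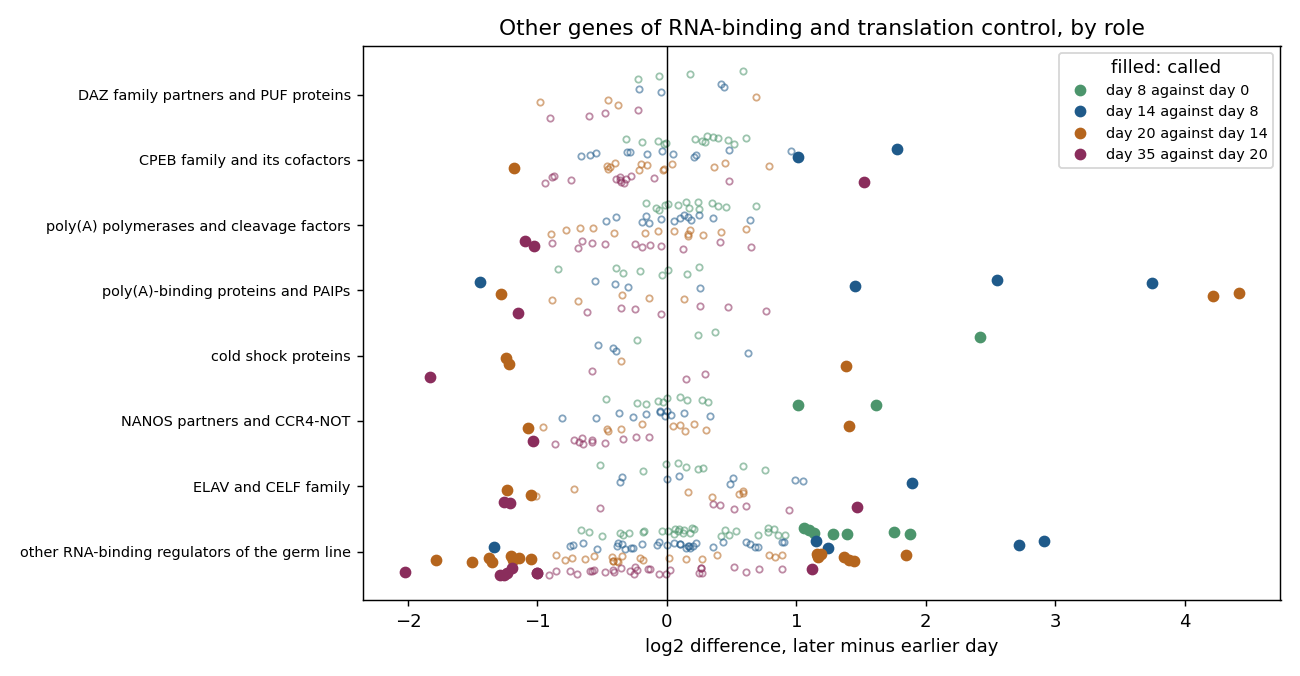
Log2 difference of each tested gene of the 8 role lists in the 4 comparisons, later day minus earlier day. Filled points were called. On day 8 against day 0 all 10 called genes are higher, and on day 35 against day 20, 14 of the 17 called genes are lower.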

How the data were processed

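The table the authors deposited holds linear intensity values, 1 for each probe set of an array. Per the labels, Trizol was used for extraction and the RNA was amplified in one cycle from its 3′ end with biotin. All arrays have a 2% trimmed mean of 125, so they were scaled before deposit, by software not given in the sources used. No further normalization was applied. Of 45101 probe sets, 64 controls were left out. Gene symbols came from the platform annotation (34945 probe sets with 1 symbol, 932 with several, 9160 not listed), and no array coordinates were used.

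Values were transformed as log2(intensity + 7.84), the constant being the pooled 20th percentile. The 37292 probe sets that passed the 40th percentile of an array in 2 or more arrays were tested. limma 3.58.1 in R 4.3.3 (lmFit, eBayes with trend) fitted day as a factor to 20 arrays, with 10 residual and 9.37 prior degrees of freedom. Tests were two-sided, adjusted by Benjamini-Hochberg within each comparison. The precision is limited by 2 arrays a day, and replicate numbers did not pair the arrays: over 45 pairs of days the deviations of same-numbered arrays correlated between -0.03 and 0.09. The 12 alternatives and the leaving out of each array are given at the end.

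From the role lists, up to 3 called genes with the largest change are named per list and comparison. Pabpc4l on day 14 against day 8 is named beyond these. For likeness the 3 highest correlations are given, leaving out symbols of clones and predicted genes. The members, lists, comparisons and rules were chosen with earlier results of these data known. Plots were made in Python 3.11.15 with matplotlib 3.10.9.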

Additional observations from a re-analysis of the deposited data

How the results depend on the processing

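Over 43 member results (leading probe sets, and others where called), 1365 alternative values were computed: 1325 kept their sign and side of the threshold, 22 lost a call, 12 gained one and 6 changed sign. The sign changes were Pabpc1 on day 20 against day 14 with a common median (-0.052), Pabpc1 on day 8 against day 0 with quantile normalization (0.146), a common median (0.104), without day 0 replicate 2 (0.054) and without day 8 replicate 2 (0.016), and Papolb on day 8 against day 0 without day 0 replicate 2 (-0.19). Leaving out each array gave -0.055 to 0.054 for that Pabpc1 difference and -0.19 to 0.383 for that of Papolb. Flooring values at the pooled median, which also raises the added constant to that median, lowered the counts of all genes in each comparison. Over all genes it left 246 higher and 157 lower on day 8 against day 0, 413 and 145 on day 14 against day 8, 1330 and 921 on day 20 against day 14, 897 and 387 on day 35 against day 20, and 8410 over time. Among members it left 1 higher on day 8 against day 0, as did a constant at the 40th percentile. Among other genes of the pathway it left 6 higher and 1 lower on day 14 against day 8 and 8 lower on day 35 against day 20, where quantile normalization left 9. The larger constant left 247 lower genes on day 14 against day 8 and 680 on day 35 against day 20. With a constant at the 5th percentile 1 member was lower on day 20 against day 14.

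A common median gave 2902 lower and 2446 higher genes (45.7% higher, beside 61.5% as deposited) on day 20 against day 14, and 65.8% higher, beside 55.5%, on day 8 against day 0. It moved the median gene by -0.19 on day 20 against day 14. Leaving out each array in turn gave 1 to 3 members higher on day 8 against day 0, 1 to 2 lower on day 20 against day 14, and 0 to 1 higher and 1 to 2 lower on day 35 against day 20. Over all genes it gave 267 to 447 lower on day 8 against day 0, the lowest without day 0 replicate 2. For other genes of the pathway it gave 1 to 2 lower on day 14 against day 8, the lowest without day 14 replicate 1. Leaving out the array with conflicting labels, day 18 replicate 2, changed no member count. With replicate number as a block, 7 members were called over time and every member count of the 4 comparisons was the same, with 2938 higher genes on day 20 against day 14, beside 2935. Intensities near the constant limit Boll, Ybx2 and Papolb before day 14, and Cpeb1 on days 0, 3, 30 and 35. There the size of a log2 difference depends on the constant. The causes of these changes were not tested.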

Other observations

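Elavl2 probe set 1433052_at, which was not tested, lay between 1.55 and 23.1 on all 20 arrays, with its highest day mean, 17.8, on day 35. In the RefSeq promoter windows of the 2 genes without a probe set, Nanos2 held CCAAT in 2 copies and Nanos3 in 0 copies.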
